A study of Mus musculus with 35 samples.

Results

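Collagen alpha chain genes were described across mouse cells sampled during Oct4 and Kdm2b reprogramming. The members were all rows whose name has the form of a collagen chain symbol, Col, a type number, a and a chain number. They numbered 44 of the 21350 genes of the table, and 41 of them were among the 13860 genes that passed a filter on low values (at least 10 in at least 2 libraries). By class, 8 of 8 fibrillar chains, 6 of 7 cartilage chains, 9 of 9 basement membrane chains and 18 of 20 other chains passed. The 3 that did not, Col9a2, Col8a2 and Col17a1, are given by their values alone.

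Poly-A selected RNA was sequenced from cells infected with factor combinations labelled OB, OA and ODR and grown in the reprogramming medium iCD1. The labels do not expand these names. As a check of the labels, Kdm2b stood at 18690 in the OB libraries of days 1 and 6 without BMP4 and at 4220 to 6246 in those of day 14, against 216 to 342 in the OA and ODR libraries of day 14. At day 6 there were 2 OB and 2 ODR libraries of cells given BMP4, a growth factor, at 10 ng/ml after the second infection round, beside 4 OB, 3 OA and 3 ODR libraries of cells without it. Days 1 and 14 had 2 and 3 libraries of each of OB, OA and ODR. ODB and ODDR cells at day 9, each with and without BMP4, mouse embryonic fibroblasts (MEF) and mouse embryonic stem cells (mESCs) had 1 library each. The labels give no strain, age or passage of the cells, and do not say whether replicates were separate cultures, so each p-value here reflects library-to-library variation that may be only technical.

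Collagens are secreted proteins whose alpha chains wind around each other into a long helix. Fibrillar chains build the rope-like fibres of connective tissue and are a hallmark of fibroblasts, type IV chains build the sheet-like network under epithelia and around vessels, and type II, IX, X and XI chains are the collagens of cartilage. The remaining types bead along, bridge or coat fibrils, or span the cell membrane.

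Values were normalized tag counts on a scale with the same ceiling of 18690 in all 35 libraries, and the sequencing depth is unknown. The scale was coarse at its top: the 2053 values of 5000 or more in the table took 42 distinct values, in 6 narrow bands of which the last 3 were 7086 to 7101, 9294 to 9314 and 18690. A difference between 9314 and 18690 is thus 1 step, and a fold that involves the ceiling is a lower bound. Collagens held 27 of the ceiling values, in 6 genes. In 2 cases a pair of columns was identical at all 21350 genes: ODR day 6 replicate 3 with ODR plus BMP4 replicate 2, and ODDR plus BMP4 with ODB plus BMP4 at day 9. The first of these was left out of both groups, so that ODR at day 6 has 1 distinct library with BMP4 and 2 without. The library labelled OA day 14 replicate 2 went against its label: its Kdm2a value was 721, against 18690 in the other 2 OA libraries of that day, and the library nearest to it was the shared day 9 library with BMP4. Results on OA at day 14 that turn on it are therefore given with and without it. It enters the pooled estimate of spread for all comparisons, so counts of collagens called are also given from a fit that leaves it out. Counts for marker and pathway lists are from the main fit unless said otherwise.

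Most collagens stood higher in the MEF library than in the mESC library. With 1 library each there is no test, and differences are on the log2(value + 1) scale. In MEF, 28 of the 41 collagens stood at least 2 log2 units above mESCs, and 2 stood as far below, against 16.3% and 10.1% of all genes tested. Those below were Col9a3, at 0 in MEF against 4 in mESCs, and Col13a1, at 0 in MEF against 3 in mESCs. The median collagen stood 3.40 log2 units above mESCs in MEF, and the median of all genes at 0.0000. Col1a1, Col1a2, Col5a2 and Col12a1 were at the ceiling of 18690 in MEF, against 1936, 1285, 475 and 496 in mESCs. Also lower in MEF were Col18a1, the source of endostatin, at 526 in MEF against 1348 in mESCs, and Col9a2, at 1 in MEF against 190 in mESCs and at 8 or less in all other libraries. Col8a2, which did not pass the filter, read 274 in MEF against 0 in mESCs and 3 or less in all other libraries. The filter did not use the MEF and mESC libraries. Col17a1 read 5 or less in all libraries.

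Levels of different chains can be compared only per length of transcript, here per kilobase of the longest coding transcript. The sources used here do not say whether the deposited values already allow for length, and the levels below hold only if they do not. In MEF Col1a2, Col1a1, Col5a2 and Col12a1 shared the ceiling value, so their order was not determined, and the lower bounds were 3495 per kilobase for Col1a2, 3152 for Col1a1, 2821 for Col5a2 and 1624 for Col12a1. In mESCs Col1a1 led at 326 per kilobase. In OB cells at day 14 Col3a1 led at 1674 and Col1a2 followed at 662, and in ODR cells at day 14 Col8a1, a short-chain collagen of the network-forming type, led at 2144, a lower bound with 1 library at the ceiling, ahead of Col3a1 at 1490.

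**Figure D1:**
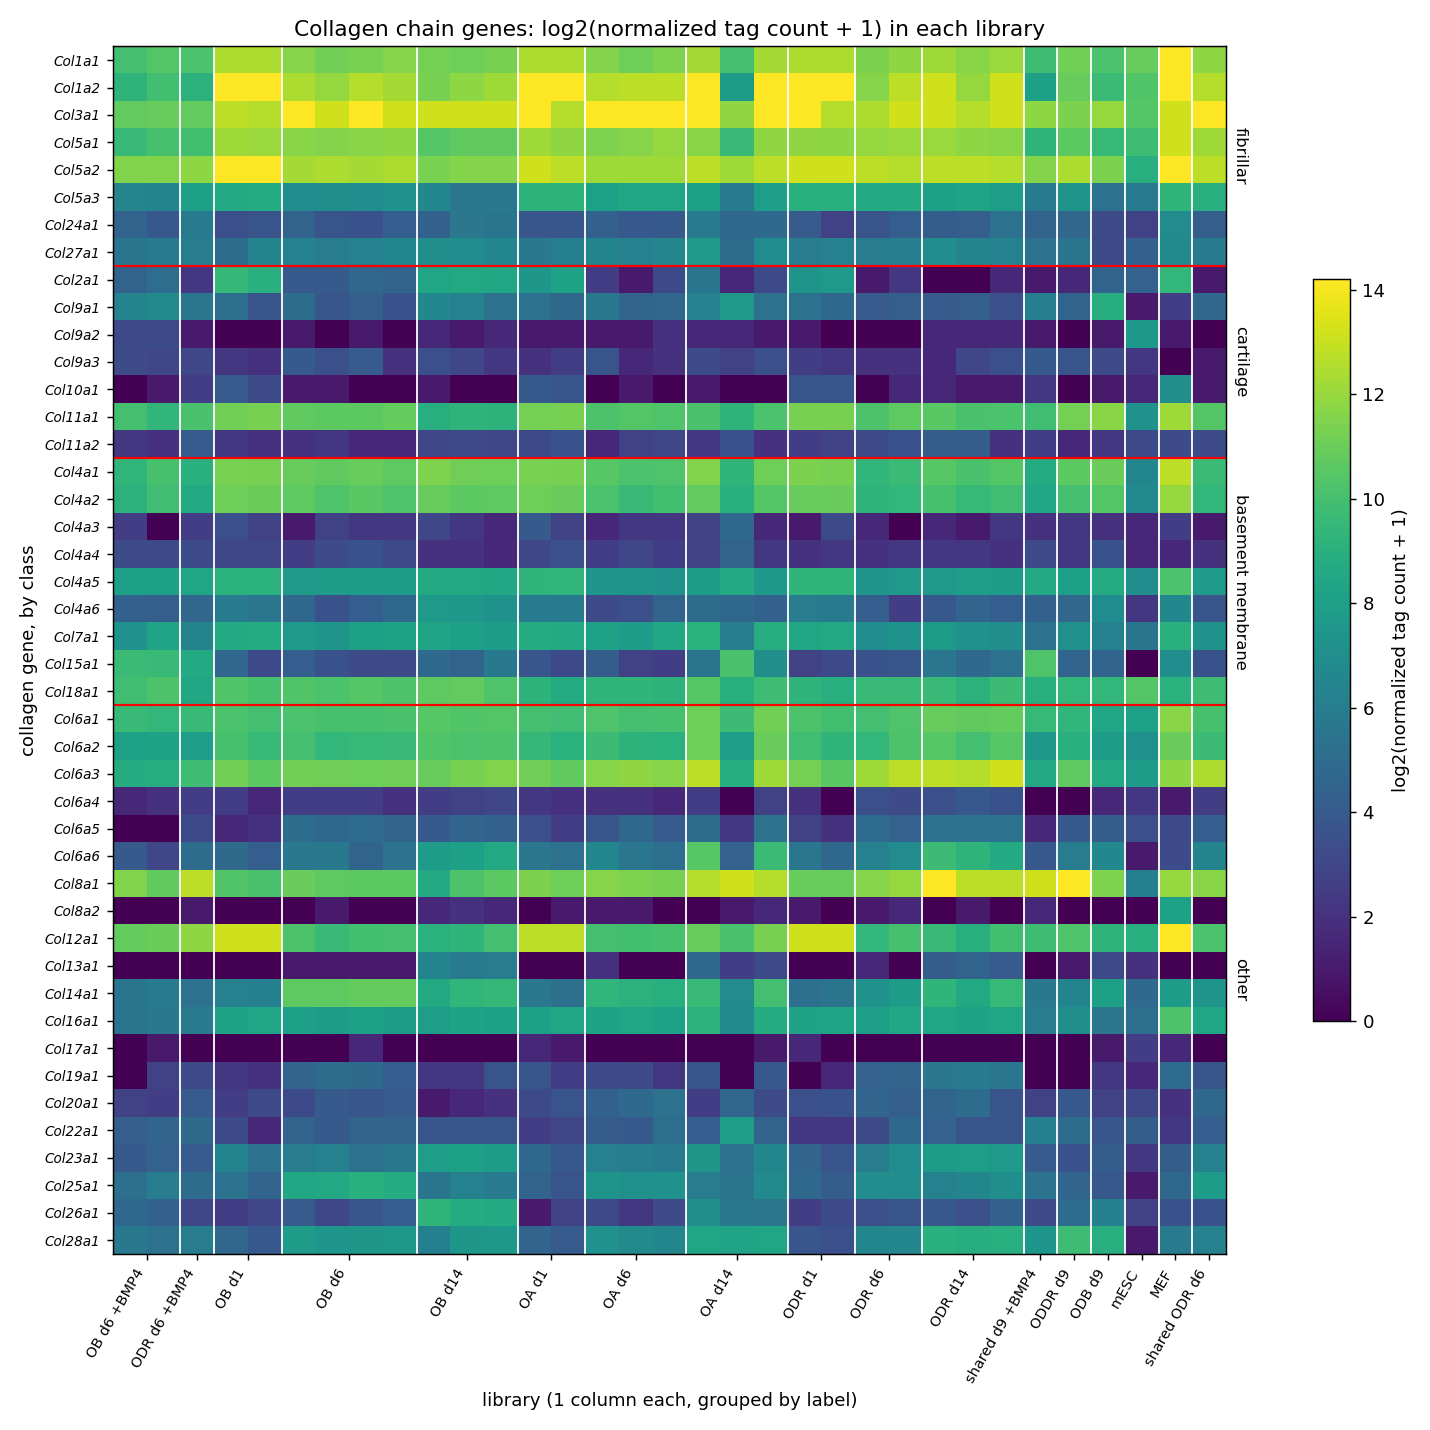
Heat map of log2(normalized tag count + 1) for all 44 collagen genes (rows, by class, red lines between classes) in every distinct library (columns, grouped by label, white lines between groups). The MEF column is bright in the fibrillar rows and the mESC column is dark in most rows, and the middle column of OA day 14 differs from its neighbours at Col1a2 (215 against 18690 and 18690) and Col15a1 (1117 against 43 and 130).

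Set against MEF, the median collagen stood lower in OB cells at days 1, 6 and 14. The median over the 41 collagens was 0.91, 1.18 and 0.53 log2 units below MEF in OB cells at days 1, 6 and 14, and 2.14 below it in OB cells with BMP4 at day 6, while the median of all genes lay 0.012 to 0.070 above MEF in these groups. At least 2 log2 units below MEF were 4 collagens in OB day 1 cells, 10 in OB day 6 cells and 11 in OB day 14 cells (background 3.95%, 5.93% and 7.14% of all genes), and as far above it were 1, 5 and 6 (background 6.09%, 8.41% and 9.06%). In OB cells with BMP4 22 stood below and 4 above, against 6.9% and 8.82% of all genes. At day 14 it was 11 below and 8 above in OA cells (background 5.79% and 8.83%), or 5 below and 9 above without OA replicate 2 (background 5.58% and 8.83%), and 9 below and 8 above in ODR cells (background 6.24% and 8.77%).
By class the medians differed. In OB cells at day 14 the median fibrillar chain stood 2.49 log2 units below MEF, the median basement membrane chain 0.96 below it and the median chain of the other class 1.12 above it. In ODR cells of that day these medians were 1.38 below, 1.72 below and 1.49 above. These medians take only chains that passed the filter, which used infected cells and not MEF. In the other class it left out Col8a2 and Col17a1, whose log2 differences of OB day 14 cells from MEF were -6.38 and -1.585. Leaving them out draws the median of that class upward. Col26a1, Col28a1, Col6a6 and Col13a1 were among the chains higher than in MEF: Col6a6, an alternative chain of type VI collagen, read 230, 254 and 372 in OB day 14 cells and 848, 594 and 402 in ODR day 14 cells, against 9 in the MEF library. This is a single MEF library, whose link to the infected cells the labels do not give.

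By day 6, Col2a1, Col10a1, Col12a1, Col4a5, Col4a6 and Col5a2 had fallen and Col14a1, Col25a1 and Col28a1 had risen in each of OB, OA and ODR cells. All tests are from limma on log2(value + 1), two-sided, with Benjamini-Hochberg adjustment over all genes, called below 0.05. In OB cells 6 collagens rose and 7 fell by day 6 (16.7% and 17.1% of all genes, 33.8% in all), in OA cells 5 rose and 8 fell (17% and 17.6%, 34.6% in all), and in ODR cells 7 rose and 9 fell (12.6% and 12.5%, 25.1% in all). The median collagen change was -0.0054, -0.050 and 0.080 log2 units in OB, OA and ODR cells, and that of all genes -0.025, -0.023 and -0.026. In OB and OA cells these counts of the main fit are near the background shares of 41 genes. With OA day 14 replicate 2 left out of the fit more collagens were called in both, where 39% (OB) and 40.1% (OA) of all genes were called. The type I chains were not called in the main fit though the days did not overlap. Col1a2 read 18690 in every day 1 library and 3178 to 7101 at day 6 without BMP4, and Col1a1 read 5616 and 2178 to 3492. The Col4a6 call in ODR cells ended in a fit of only the groups compared (limma adjusted p = 0.0544).
Markers of smooth muscle and cartilage fell over the same days. All 4 smooth muscle markers (Acta2, Tagln, Myh11 and Cnn1) were lower at day 6 in each of OB, OA and ODR cells. Their sums were 551 to 900 at day 6 against 6830 to 22499 at day 1 in OB cells. They were 476 to 642 at day 6 against 9746 to 13739 at day 1 in OA cells, and 333 to 383 at day 6 against 8332 to 13371 at day 1 in ODR cells. Of 4 chondrocyte markers tested, 3 were lower in OB, 3 in OA and 2 in ODR cells. Their sums were 68 to 112 at day 6 against 305 to 325 at day 1 in OB cells. They were 89 to 104 at day 6 against 323 to 388 at day 1 in OA, and 92 to 103 at day 6 against 250 to 284 at day 1 in ODR cells. Their part in the collagen changes was not tested.

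The cartilage chain Col2a1 and the fibril-associated chain Col12a1 fell in all of OB, OA and ODR. Col2a1, the main chain of cartilage fibrils (chr15:97975602-98004695, minus strand, mm10), read 15, 15, 25 and 22 in OB day 6 cells against 708 and 510 at day 1. In OA cells it read 5, 1 and 8 at day 6 against 182 and 300 at day 1, and in ODR cells 1 and 4 at day 6 against 159 and 202 at day 1. The days did not overlap in any of them, and the log2 changes from limma were -4.93 ± 0.76 in OB (SE; adjusted p = 9.28e-05), -5.62 ± 0.81 in OA (adjusted p = 4.22e-05) and -5.83 ± 0.88 in ODR (adjusted p = 0.000126).
Col12a1, a chain that decorates type I fibrils, read 1214, 779, 950 and 980 in OB day 6 cells against 9294 and 9294 at day 1, 1034, 951 and 1068 in OA day 6 cells against 7086 and 7086 at day 1, and 682 and 1054 in ODR day 6 cells against 9294 and 9294 at day 1. Again no library overlapped, and the log2 changes were -3.26 ± 0.30 in OB, -2.80 ± 0.32 in OA and -3.45 ± 0.35 in ODR (SE), with adjusted p (limma) of 3.45e-07, 3.51e-06 and 2.12e-06. Col10a1, the collagen of hypertrophic cartilage, stood at 0 to 2 in the 9 day 6 libraries without BMP4 of the fit, against 9 to 16 in the 6 libraries of day 1. The partner of type II collagen in cartilage fibrils, Col11a1, fell in OA and ODR cells. In OB cells it read 1724, 1577, 1577 and 1819 at day 6 against 2354 and 2545 at day 1, with no overlap and no call (adjusted p = 0.0657, limma).

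Col14a1, which binds fibril surfaces, rose furthest of the 3 risers in OB and OA cells. It read 1621, 1668, 1856 and 1820 in OB day 6 cells against 71 and 69 at day 1, a log2 change of 4.61 ± 0.55 (SE; adjusted p = 5.6e-06, limma). In OA cells it read 641, 559 and 482 at day 6 against 50 and 37 at day 1 (3.66 ± 0.58), and in ODR cells 153 and 232 at day 6 against 36 and 43 at day 1 (2.23 ± 0.63; adjusted p = 0.0146, limma). The ODR call ended in limma without ODR day 6 replicate 2 (adjusted p = 0.109), without ODR day 1 replicate 1 (0.0794) and without ODR day 1 replicate 2 (0.0589).
Col25a1, a membrane-spanning chain, read 364, 386, 508 and 447 in OB day 6 cells against 42 and 22 at day 1 (3.75 ± 0.35; adjusted p = 4.45e-07, limma), and it rose by 3.14 ± 0.37 in OA and by 2.50 ± 0.41 in ODR cells. Col28a1, a collagen with domains like those of von Willebrand factor, read 224, 177, 180 and 187 in OB day 6 cells against 25 and 14 at day 1 (3.28 ± 0.31; adjusted p = 5.03e-07, limma). Col23a1, another membrane-spanning chain, rose in OA (1.70 ± 0.48) and ODR (2.29 ± 0.53), and in limma these calls ended without OA day 1 replicate 2 (adjusted p = 0.158), without ODR day 1 replicate 2 (0.0698) and without ODR day 6 replicate 2 (0.0612). In OB cells Col23a1 read 64, 76, 40 and 53 at day 6 against 85 and 38 at day 1.

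**Figure D2:**
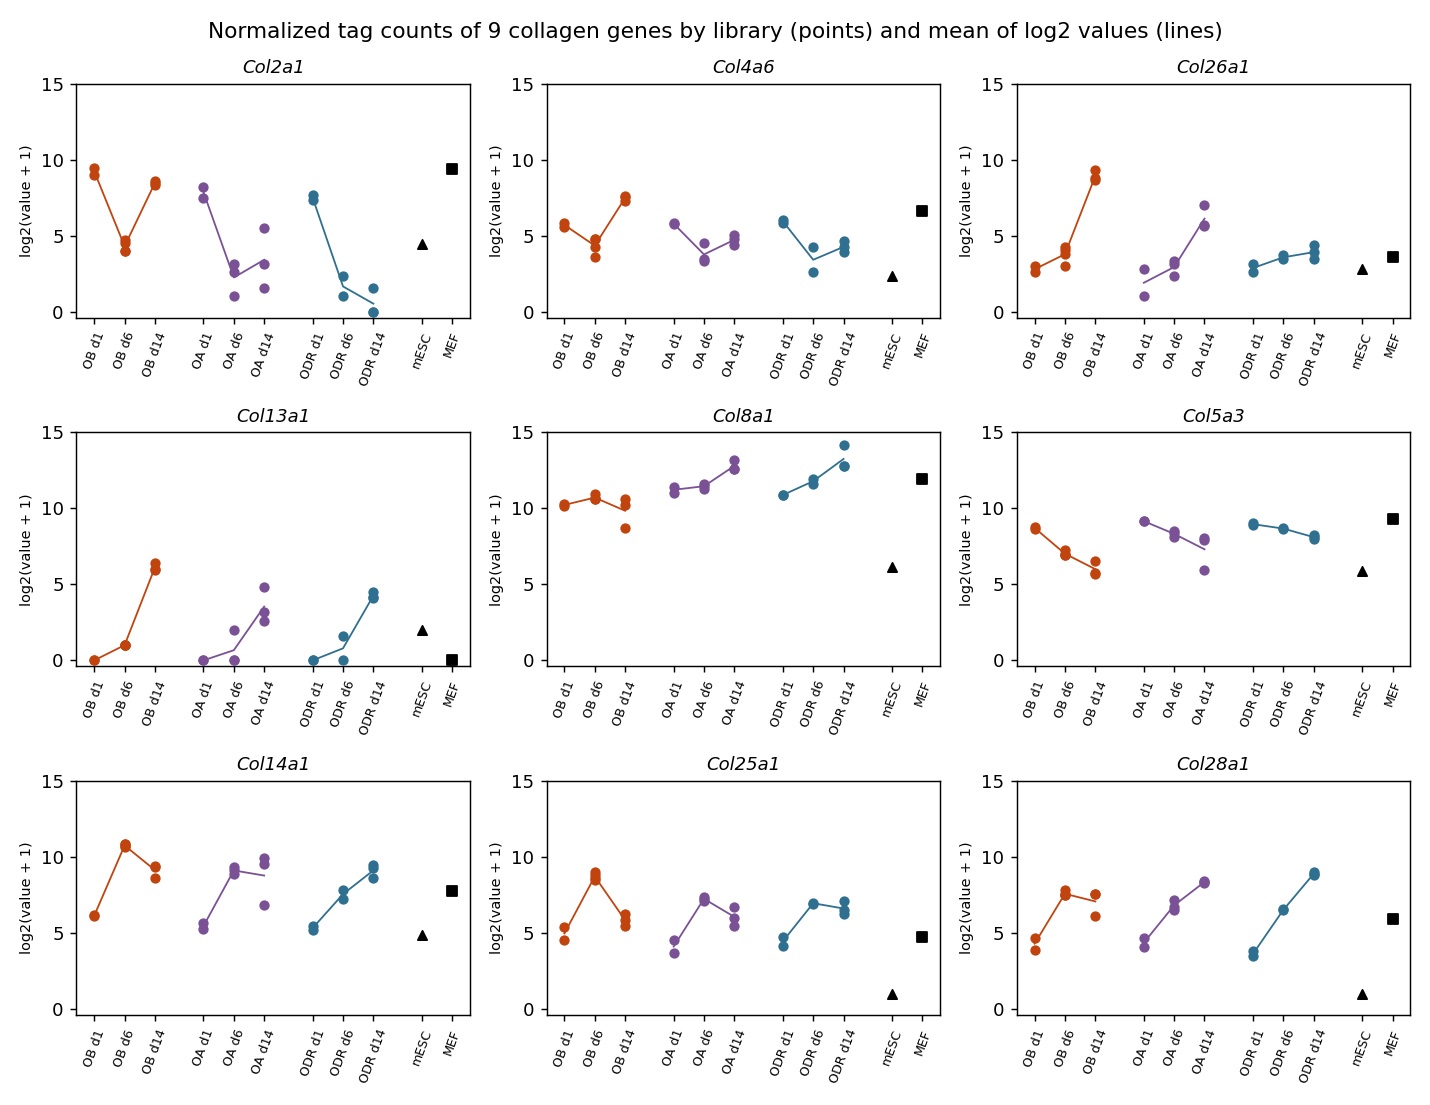
Log2(normalized tag count + 1) of 9 collagen genes in each library (points) of OB, OA and ODR at days 1, 6 and 14 and in the single mESC and MEF libraries; lines join the means of the log2 values. Col2a1 falls in OB, OA and ODR by day 6 and stands at 330 to 388 in the 3 OB libraries of day 14, while Col8a1 stands at 7086 or above in the 3 ODR libraries of that day.

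At day 1, OB and ODR cells differed in 1 collagen that was higher and 0 that were lower in OB (0.642% and 0.238% of all genes, 0.88% in all; the 1 was Col5a2, a fibrillar chain that helps set fibril width; 1287 genes had an unadjusted p below 0.05). It read 18690 in both OB libraries and 9314 in both ODR libraries, which is 1 step of the scale (log2 difference 1.00 ± 0.17 SE, adjusted p = 0.0051, limma). The limma call ended without OB replicate 1 (adjusted p = 0.0821) and without ODR replicate 2 (0.0571), and in a fit of only the 2 groups compared (0.123). Col2a1 already read 708 and 510 in OB against 159 and 202 in ODR cells, with no overlap and no call (log2 difference 1.74 ± 0.88, adjusted p = 0.591, limma). The median collagen difference was 0.0102 and that of all genes -0.0062.

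At day 6, 6 collagens were higher and 1 was lower in OB than in ODR cells, against 5.74% and 4.81% of all genes (10.5% in all); the median collagen differed by 0.19 and the median gene by -0.011 log2 units. Col14a1 read 1621, 1668, 1856 and 1820 in OB cells against 153 and 232 in ODR cells (3.20 ± 0.55 SE, adjusted p = 0.00109, limma). Col25a1 read 364, 386, 508 and 447 in OB against 126 and 122 in ODR cells (1.76 ± 0.35, adjusted p = 0.00353, limma). Both held their call in all 13 alternatives run, and the libraries did not overlap.
The major type IV chains were also higher. Col4a1 read 1897, 1720, 1898 and 1638 in OB against 661 and 812 in ODR cells (1.28 ± 0.38, adjusted p = 0.037, limma), and Col4a2 read 1660, 1242, 1488 and 1254 in OB against 607 and 669 in ODR cells (1.13 ± 0.33, adjusted p = 0.0353, limma). Neither gene overlapped, but the Col4a1 call ended when any of the 6 libraries was left out (limma adjusted p from 0.0521 to 0.235), and that of Col4a2 ended without either ODR library (0.202 and 0.153) or without OB replicate 1 or 3 (0.0821 and 0.0728). With a replicate block both calls ended (limma adjusted p = 0.0668 for Col4a1 and 0.0532 for Col4a2). Col2a1, at 15, 15, 25 and 22 in OB against 1 and 4 in ODR cells, and Col28a1, at 224, 177, 180 and 187 in OB against 89 and 94 in ODR cells, were called higher too. The chain called lower was Col5a3, which joins type V fibrils, at 119, 127, 122 and 150 in OB against 411 and 404 in ODR cells (-1.65 ± 0.39, adjusted p = 0.0107, limma). Without ODR replicate 1 or replicate 2 its limma adjusted p was 0.0873 and 0.086.
The type I chains were not called: Col1a2 read 5624, 4005, 6250 and 5090 in OB against 3178 and 7101 in ODR cells, and Col1a1 3172, 2347, 2620 and 3172 in OB against 2720 and 3492 in ODR cells. With OA day 14 replicate 2 left out of the fit, 8 collagens were called higher and 4 lower, against 8.01% and 7.24% of all genes. Between OA and ODR cells at day 6 limma called 0 of 41 collagens (2.22% of all genes, 1.34% higher and 0.88% lower; 1904 genes had an unadjusted p below 0.05). The median collagen differed by -0.013 and the median gene by -0.0079 log2 units. With OA day 14 replicate 2 left out of the fit 4 collagens were called, Col14a1 (641, 559 and 482 in OA against 153 and 232 in ODR cells) and Col4a1 (1435, 1173 and 1232 in OA against 661 and 812 in ODR cells) as higher and Col5a2 and Col6a4 as lower, against 2.73% higher and 1.94% lower of all genes (4.67% in all). Between OB and ODR cells at day 6, all 4 neural markers were higher in OB (sums 1833 to 2498 in OB and 657 to 832 in ODR cells). So were 2 of 3 embryonic stem cell markers tested (Sall4 and Utf1, sums 52 to 98 in OB and 4 to 11 in ODR cells). Nanog, Zfp42, Dppa3, Dppa5a and Tdgf1, of the same list but not tested, stood at 3 or less in these libraries. The part of these markers in the collagen differences was not tested.

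At day 14 OB cells had more Col2a1, Col26a1, Col4a2, Col4a5 and Col4a6 than ODR cells and less Col8a1, Col28a1 and type V chains. Of 41 collagens 8 were higher and 9 lower in OB cells; over all genes 28% were higher and 26.7% lower, so 54.7% were called. With OA day 14 replicate 2 left out of the fit, 10 collagens were higher and 15 lower, against 30% and 29.1% of all genes. The median collagen differed by -0.21 log2 units and the median gene by 0.0086. By class, 0 fibrillar chains were higher and 3 of 8 lower, 2 cartilage chains were higher and 1 of 6 lower, 4 of 9 basement membrane chains were higher and 0 lower, and 2 of the other 18 were higher and 5 lower. In bulk RNA, fewer cells of a type and less RNA per cell cannot be told apart.

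The fibrillar chains of type V were lower in OB cells. Col5a3 read 93, 51 and 53 in OB against 272, 307 and 250 in ODR cells, with no overlap (-2.11 ± 0.37 SE, adjusted p = 9.79e-05, limma). Col5a2 read 2626, 3022 and 3022 in OB against 7101, 7101 and 6251 in ODR cells (-1.24 on the log2 scale), and Col5a1 1430, 1716 and 1690 in OB against 4214, 3488 and 3317 in ODR cells (-1.18). The type I chains, the main collagen of skin and bone, did not pass the test: Col1a1 did not overlap and read 2412, 2178 and 2536 in OB against 4621, 3320 and 4217 in ODR cells (-0.76 ± 0.40, adjusted p = 0.121, limma). Col1a2 read 2483, 3499 and 4632 in OB against 9312, 4005 and 9312 in ODR cells, which overlap (-1.04 ± 1.06, adjusted p = 0.432, limma). With OA day 14 replicate 2, where Col1a2 stood at 215, left out of the fit, the limma adjusted p was 0.000601 for Col1a1 and 0.0102 for Col1a2. Col3a1 was not called, and read 9314 in each OB library against 9314, 6251 and 9314 in ODR cells.

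In the cartilage class Col2a1 differed most. It read 330, 388 and 352 in OB cells against 0, 0 and 2 in ODR cells, a log2 difference of 7.95 ± 0.72 (SE; adjusted p = 9.27e-08, limma). Since ODR cells stood at or near 0, the size depends on the 1 added before the log, and it was 5.11 with 10 added. Col9a1, a chain of the collagen that coats type II fibrils, read 97, 76 and 38 in OB against 16, 19 and 10 in ODR cells (2.10 ± 0.53, adjusted p = 0.00272, limma). Col11a1 was lower, at 494, 606 and 589 in OB against 1495, 1118 and 1150 in ODR cells (-1.15 on the log2 scale, adjusted p = 0.00016, limma). Col9a3, Col10a1 and Col11a2 did not pass the test and stood at 17 or less in all 6 libraries, and Col9a2 stood at 1 or 2. Cartilage-defining genes were near absent: Matn1 and Comp were at 0 in all 6 libraries and Acan at 1, 0 and 1 in OB against 0 in each ODR library. Of 4 chondrocyte markers tested, 3 were higher in OB cells (Sox9, Matn3 and Hapln1), and the sum of all 7 in the table was 187 to 287 in OB and 85 to 99 in ODR cells. Brachyury (T), a marker of primitive streak and notochord, read 59, 43 and 52 in OB and 0 in each ODR library, while Noto was at 0 and Shh and Foxa2 at 2 or less in all of them. The part of any such cells in the Col2a1 value was not tested.

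Basement membrane chains were higher in OB cells where they differed. Col4a6, a type IV chain of epithelial and smooth muscle basement membranes, read 197, 189 and 152 in OB against 14, 24 and 18 in ODR cells (3.22 ± 0.38 SE, adjusted p = 1.72e-06, limma). Its neighbour Col4a5 read 388, 395 and 356 in OB against 193, 251 and 220 in ODR cells (0.78 on the log2 scale). Col18a1 read 1635, 1747 and 1267 in OB against 762, 556 and 861 in ODR cells (1.10), and Col4a2 1892, 1572 and 1660 in OB against 1076, 734 and 928 in ODR cells (0.92). Col4a1, at 2804, 2220 and 2182 in OB against 1454, 1134 and 1410 in ODR cells, did not overlap and just missed the call (0.85 ± 0.36, adjusted p = 0.0526, limma). Without OA day 14 replicate 2 in the fit its limma adjusted p was 0.000248. Epithelial markers differed in the same comparison: all 4 tested of 6 (Cdh1, Epcam, Krt8 and Krt18) were higher, with sums of 71 to 198 in OB and 5 to 9 in ODR cells. Krt5 and Krt14 were at 0. Their part in the type IV values was not tested.

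Among the other chains Col26a1 had the largest upward difference and Col8a1 the largest downward one. Col26a1, a chain first described in testis and ovary, read 628, 442 and 413 in OB against 14, 10 and 20 in ODR cells (5.01 ± 0.45 SE, adjusted p = 9.06e-08, limma). Col13a1, a membrane-spanning chain of cell junctions, read 84, 60 and 64 in OB against 17, 22 and 16 in ODR cells (1.86 on the log2 scale). Col8a1 read 410, 1214 and 1571 in OB against 18690, 7086 and 7086 in ODR cells (-3.41 ± 0.40, adjusted p = 1.45e-06, limma), a lower bound in size since 1 ODR library was at the ceiling. Col28a1 read 70, 185 and 188 in OB against 514, 452 and 470 in ODR cells (-1.82 ± 0.29, adjusted p = 4.37e-05, limma). Col6a3, the large chain of type VI microfibrils, read 1938, 2540 and 2888 in OB against 7096, 6246 and 9306 in ODR cells (-1.62 ± 0.62, adjusted p = 0.0336, limma). That call ended when any of ODR replicates 1, 2 and 3 or OB replicates 1 and 2 was left out (limma adjusted p from 0.0501 to 0.101). Its partner chains Col6a1 and Col6a2 were not called, at 1472, 1281 and 1350 in OB against 1936, 1693 and 1850 in ODR cells for Col6a1. Col19a1 and Col20a1 were lower too, at 12 or less in OB cells. Of the members with full statistics here, Col2a1, Col26a1, Col8a1, Col28a1, Col5a3, Col9a1 and Col4a6 held the call in each of the 12 alternatives run.

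From day 6 to day 14, 11 collagens changed differently in OB and ODR cells, a share not above that of all genes. In OB cells 10 collagens rose and 9 fell (24.4% and 22% of the 41, against 26.8% and 28.2% of all genes, 55% in all). In ODR cells 2 rose and 0 fell (4.88% and 0%, against 2.27% and 1.68% of all genes, 3.95% in all). The median collagen change was 0.13 in OB and 0.38 in ODR cells, and that of all genes -0.012 and -0.044 log2 units. In OB cells Col26a1 went up to 628, 442 and 413 at day 14 against 16, 7, 13 and 18 at day 6 (5.14 ± 0.42 SE, adjusted p = 4.41e-08, limma), Col13a1 to 84, 60 and 64 against 1 in each of the 4 day 6 libraries (5.12 ± 0.48, adjusted p = 1.41e-07), Col2a1 to 330, 388 and 352 against 15, 15, 25 and 22 (4.17 ± 0.67, adjusted p = 4.77e-05) and Col4a6 to 197, 189 and 152 against 27, 11, 18 and 26 (3.14 ± 0.36, adjusted p = 1.22e-06). None of these overlapped.
Col25a1, raised at day 6, fell in OB cells to 44, 74 and 56 at day 14 against 364, 386, 508 and 447 at day 6 (-2.88 ± 0.31, adjusted p = 6.38e-07, limma). Col14a1 fell to 398, 662 and 689 against 1621, 1668, 1856 and 1820 (-1.62 ± 0.48, adjusted p = 0.00845), Col11a1 to 494, 606 and 589 against 1724, 1577, 1577 and 1819 (-1.57 ± 0.20, adjusted p = 3.26e-06), and Col5a1 to 1430, 1716 and 1690 against 3317, 3007, 3317 and 3488 (-1.03 ± 0.35, adjusted p = 0.0185). Without OB day 14 replicate 1 the limma adjusted p was 0.0506 for Col14a1 and 0.0668 for Col5a1. In ODR cells the chains that rose were Col28a1, to 514, 452 and 470 at day 14 against 89 and 94 at day 6 (2.37 ± 0.33, adjusted p = 0.000543, limma), and Col13a1, to 17, 22 and 16 against 2 and 0.
Tested as a difference of these 2 changes, 4 collagens moved more upward and 7 more downward in OB than in ODR cells. That is 9.76% and 17.1% of the 41, against 18.3% and 17.2% of all genes (35.4% in all). Col2a1 (5.31 ± 1.05) and Col26a1 (4.80 ± 0.66) led the first and Col14a1 (-3.18 ± 0.75) and Col28a1 (-2.88 ± 0.43) the second, on the log2 scale with SE. Col28a1 stood at 70, 185 and 188 at day 14 against 224, 177, 180 and 187 at day 6 in OB cells.

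At day 14 Col26a1, Col9a1, Col12a1 and Col2a1 were higher in OA than in ODR cells. In all 4 collagens were higher and 1 lower in OA cells (2.82% and 2.53% of all genes, 5.35% in all), and without OA replicate 2 these counts were 9 and 1 (3.25% and 2.32%). The median collagen differed by -0.16 and the median gene by 0.0016 log2 units with all 3 libraries, and by 0.43 and 0 without OA replicate 2. Col26a1 read 130, 52 and 48 in OA against 14, 10 and 20 in ODR cells (2.21 ± 0.45 SE, adjusted p = 0.00822, limma), and without OA replicate 2, the library at 52, the difference was 2.40 ± 0.51 (adjusted p = 0.00969). Col9a1 read 73, 202 and 39 in OA against 16, 19 and 10 in ODR cells (2.44 ± 0.53, adjusted p = 0.0111), and 1.81 ± 0.50 without replicate 2 (adjusted p = 0.0439). Col12a1 read 1934, 1122 and 2532 in OA against 796, 499 and 958 in ODR cells (1.28 ± 0.28, adjusted p = 0.0117), and 1.61 ± 0.27 without OA replicate 2 (adjusted p = 0.00178); without ODR replicate 2 its limma adjusted p was 0.0765. Col2a1 was called at 44, 2 and 8 in OA against 0, 0 and 2 in ODR cells, which meet at 2 (2.89 ± 0.72, adjusted p = 0.0251, limma), and the difference was 3.80 ± 0.66 without OA replicate 2, the library at 2 (adjusted p = 0.00225). In a fit of the OA and ODR day 14 libraries alone none of these collagens was called (0 of 41), where 0.04% of all genes were called.
The library labelled OA replicate 2 alone set several values: Col1a2 read 18690, 215 and 18690 in OA against 9312, 4005 and 9312 in ODR cells, Col15a1 43, 1117 and 130 in OA against 46, 28 and 39 in ODR cells, and Col6a3 7096, 454 and 4626 in OA against 7096, 6246 and 9306 in ODR cells. Without it Col1a2 was called higher in OA cells (1.41 ± 0.36, a lower bound at the ceiling, adjusted p = 0.0278, limma), against -0.73 ± 1.06 with it, and Col4a1, Col4a2, Col7a1 and Col16a1 were also called higher. The call of Col19a1 as lower, at 12, 0 and 14 in OA against 49, 54 and 46 in ODR cells, ended without it (limma adjusted p = 0.105). In the same comparison 3 of 4 epithelial markers tested (Cdh1, Krt8 and Krt18) were higher in OA, with or without replicate 2. The sums of the list were 115, 660 and 70 in OA against 5 to 9 in ODR cells. The library with the highest sum, replicate 2, was the lowest of the OA day 14 libraries in Col1a2, Col4a1, Col4a2, Col7a1 and Col16a1. These chains were called only when it was left out, so that order follows largely from how they were picked. In Col4a5 (406 against 224 and 189), Col15a1 (1117 against 43 and 130) and Col9a1 (202 against 73 and 39) it was the highest. Without replicate 2, 5 of 11 fibroblast markers were higher in OA and 1 was lower. Their part in the collagen values was not tested.

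Between day 6 and day 14 in OA cells 6 collagens rose and 1 fell (4.05% and 4.08% of all genes, 8.14% in all; median collagen change 0.41, median gene -0.033), and without OA day 14 replicate 2 15 rose and 1 fell (4.55% and 3.11%; medians 0.87 and -0.040). Col15a1, a chain near basement membranes of vessels and muscle, read 43, 1117 and 130 at day 14 against 17, 6 and 5 at day 6 (4.35 ± 0.77 SE, adjusted p = 0.0025, limma), and 3.06 ± 0.54 without replicate 2 (adjusted p = 0.00204). Col26a1 (3.19 ± 0.45, adjusted p = 0.0004) and Col28a1 (1.54 ± 0.29, adjusted p = 0.00419) also rose and were 3.39 ± 0.51 and 1.57 ± 0.34 without it. Col8a1, at 6240, 9294 and 6240 at day 14 against 3168, 2798 and 2532 at day 6 (1.34 ± 0.40, adjusted p = 0.0467, limma), and Col25a1, at 63, 43 and 106 against 165, 138 and 153 (-1.19 ± 0.33, adjusted p = 0.0354), lost their calls without it (adjusted p = 0.133 and 0.131) and without any of the 3 day 6 libraries or OA day 14 replicate 1 (from 0.0654 to 0.131). A fit of these 6 libraries alone called 0 of 41, and 0.0319% of all genes.

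Set directly against OA cells, OB cells at day 14 had 7 collagens higher and 10 lower (26.5% and 25.2% of all genes, 51.7% in all; median collagen difference -0.083, median gene 0), and 5 higher and 18 lower without OA replicate 2 (26.6% and 25.4%; medians -0.70 and 0.0077). Col2a1 read 330, 388 and 352 in OB against 44, 2 and 8 in OA cells (5.06 ± 0.72 SE, adjusted p = 1.57e-05, limma; 4.15 ± 0.66 without OA replicate 2). Col26a1 (2.80 ± 0.45), Col4a6 (2.75 ± 0.38) and Col13a1 (2.58 ± 0.51) were higher and Col8a1 (-2.95 ± 0.40), Col12a1 (-1.34 ± 0.28) and Col28a1 (-1.28 ± 0.29) lower in OB, and all of these calls held without that library. Col22a1, a chain of tissue junctions such as that of muscle and tendon, was called lower at 13, 13 and 13 in OB against 18, 246 and 22 in OA cells (-1.77 ± 0.68, adjusted p = 0.0373), and without OA replicate 2 the difference was -0.58 ± 0.44 (adjusted p = 0.288); leaving out OB replicate 1, 2 or 3 also ended it (0.0795, 0.073 and 0.0727). The comparisons of OB and OA with ODR share the ODR libraries, and Col2a1 stood at 330 to 388 in OB, 2 to 44 in OA and 0 to 2 in ODR cells.

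OB cells given BMP4 had lower Col3a1, Col14a1 and Col25a1 at day 6 and higher Col15a1 than OB cells without it. Of 41 collagens 3 were higher and 15 lower with BMP4, against 15% and 17.5% of all genes (32.5% in all). With OA day 14 replicate 2 left out of the fit 3 were higher and 21 lower (17.1% and 20.1% of all genes), and without OB plus BMP4 replicate 1 2 were higher and 9 lower (9.38% and 12.7% of all genes). The median collagen differed by -0.82 log2 units and the median gene by -0.017. By class, 0 fibrillar chains were higher and 4 of 8 lower, 1 cartilage chain was higher and 1 of 6 lower, 1 basement membrane chain was higher and 2 of 9 lower, and 1 of the other 18 was higher and 8 lower.

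In the fibrillar class Col3a1, Col5a1, Col5a2 and Col1a1 were lower with BMP4. Col3a1, the partner of type I collagen in soft tissue, read 1786 and 1942 with BMP4 against 18690, 9314, 18690 and 9314 without (-2.82 ± 0.57 SE, a lower bound in size, adjusted p = 0.00106, limma). Col1a2 read 610 and 970 with BMP4 against 5624, 4005, 6250 and 5090 without, with no overlap and no call (-2.75 ± 1.13, adjusted p = 0.0709); with OA day 14 replicate 2 left out of the fit its limma adjusted p was 6.59e-06. Col1a1 read 981 and 1364 with BMP4 against 3172, 2347, 2620 and 3172 without (-1.28 on the log2 scale), and Col5a1 783 and 1062 with BMP4 against 3317, 3007, 3317 and 3488 without (-1.84). Col5a2 was lower too (2892 and 2892 with BMP4 against 5091, 5626, 5091 and 5626 without).

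The largest falls were among the other chains. Col14a1 read 45 and 55 with BMP4 against 1621, 1668, 1856 and 1820 without (-5.10 ± 0.55 SE, adjusted p = 3.76e-06, limma), where the day 1 OB cells stood at 71 and 69. Col25a1 read 36 and 62 with BMP4 against 364, 386, 508 and 447 without (-3.13 ± 0.35, adjusted p = 5.86e-06), and Col16a1, a fibril-associated chain of skin, 44 and 52 with BMP4 against 254, 230, 264 and 226 without (-2.32 ± 0.41, adjusted p = 0.000319). Col6a5 was listed at 0 in both libraries with BMP4 and at 32, 26, 30 and 24 without. Col6a3 (450 and 468 with BMP4 against 2289, 2219, 2182 and 2219 without), Col28a1, Col23a1 and Col19a1 were lower as well. The type IV chains Col4a1 (662 and 1058 with BMP4 against 1897, 1720, 1898 and 1638 without) and Col4a2 (566 and 934 against 1660, 1242, 1488 and 1254) and the cartilage chain Col11a1 (1022 and 652 against 1724, 1577, 1577 and 1819) completed the lower calls.

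Col15a1 was the chain that rose most with BMP4, at 812 and 776 against 18, 11, 9 and 9 without (6.02 ± 0.82 SE, adjusted p = 3.36e-05, limma). Col9a1 read 83 and 104 with BMP4 against 32, 13, 19 and 11 without (2.36 ± 0.56, adjusted p = 0.00379), and without OB plus BMP4 replicate 2 its limma adjusted p was 0.0504. Col12a1 read 1810 and 2062 with BMP4 against 1214, 779, 950 and 980 without (1.00 ± 0.30, adjusted p = 0.0164), and its call ended without either library with BMP4 (0.0581 and 0.129). Col2a1 did not pass the test, at 22 and 33 with BMP4 against 15, 15, 25 and 22 without, nor did Col8a1, at 2882 and 1716 with BMP4 against 1968, 1659, 1552 and 1571 without.
Markers of other cell types moved in the same comparison. Of the endoderm markers, 4 of 7 were higher and 1 lower, with Gata4 at 62 and 96 and Sox17 at 124 and 140 with BMP4 against 0 to 6 and 0 to 1 without; the sum of the list was 6355 to 6990 with BMP4 and 5495 to 6938 without. All 4 epithelial markers tested were higher, with sums of 338 to 873 with BMP4 and 51 to 82 without. Of 11 fibroblast markers 4 were higher (among them Thy1 and Prrx1) and 6 lower (among them Dcn at 120 and 148 and Lum at 90 and 98 with BMP4, against 530 to 775 and 587 to 768 without), with sums of 33031 to 33063 with BMP4 and 34242 to 35198 without. Vim and Fn1 make up most of these sums, at 9308 and 18690 with BMP4 and at 18690 and 9308 without, so the sums say little of the other markers. Chondrocyte markers (Sox9 and Hapln1 of 4 tested higher, sums 237 to 322 with BMP4 and 68 to 112 without) moved as well. So did osteoblast markers (Sp7 and Ibsp of 4 higher, sums 700 to 727 with BMP4 and 458 to 543 without). Alpl, which was not called, makes up most of these sums, and Sp7 read 40 and 55 and Ibsp 37 and 28 with BMP4. Embryonic stem cell markers moved too (Esrrb and Sall4 of 3 higher, sums 193 to 295 with BMP4 and 52 to 98 without). Nanog, Zfp42, Dppa3, Dppa5a and Tdgf1, of that list but not tested, stood at 10 or less with BMP4, against 360 to 7086 in mESCs. Lower were 1 of 4 neural markers (Nes, sums 904 to 945 with BMP4 and 1833 to 2498 without), 1 of 4 endothelial markers (sums 104 to 129 with BMP4 and 135 to 222 without) and 1 of 2 macrophage markers (sums 54 to 67 with BMP4 and 102 to 128 without). Their part in the collagen values was not tested.

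**Figure D3:**
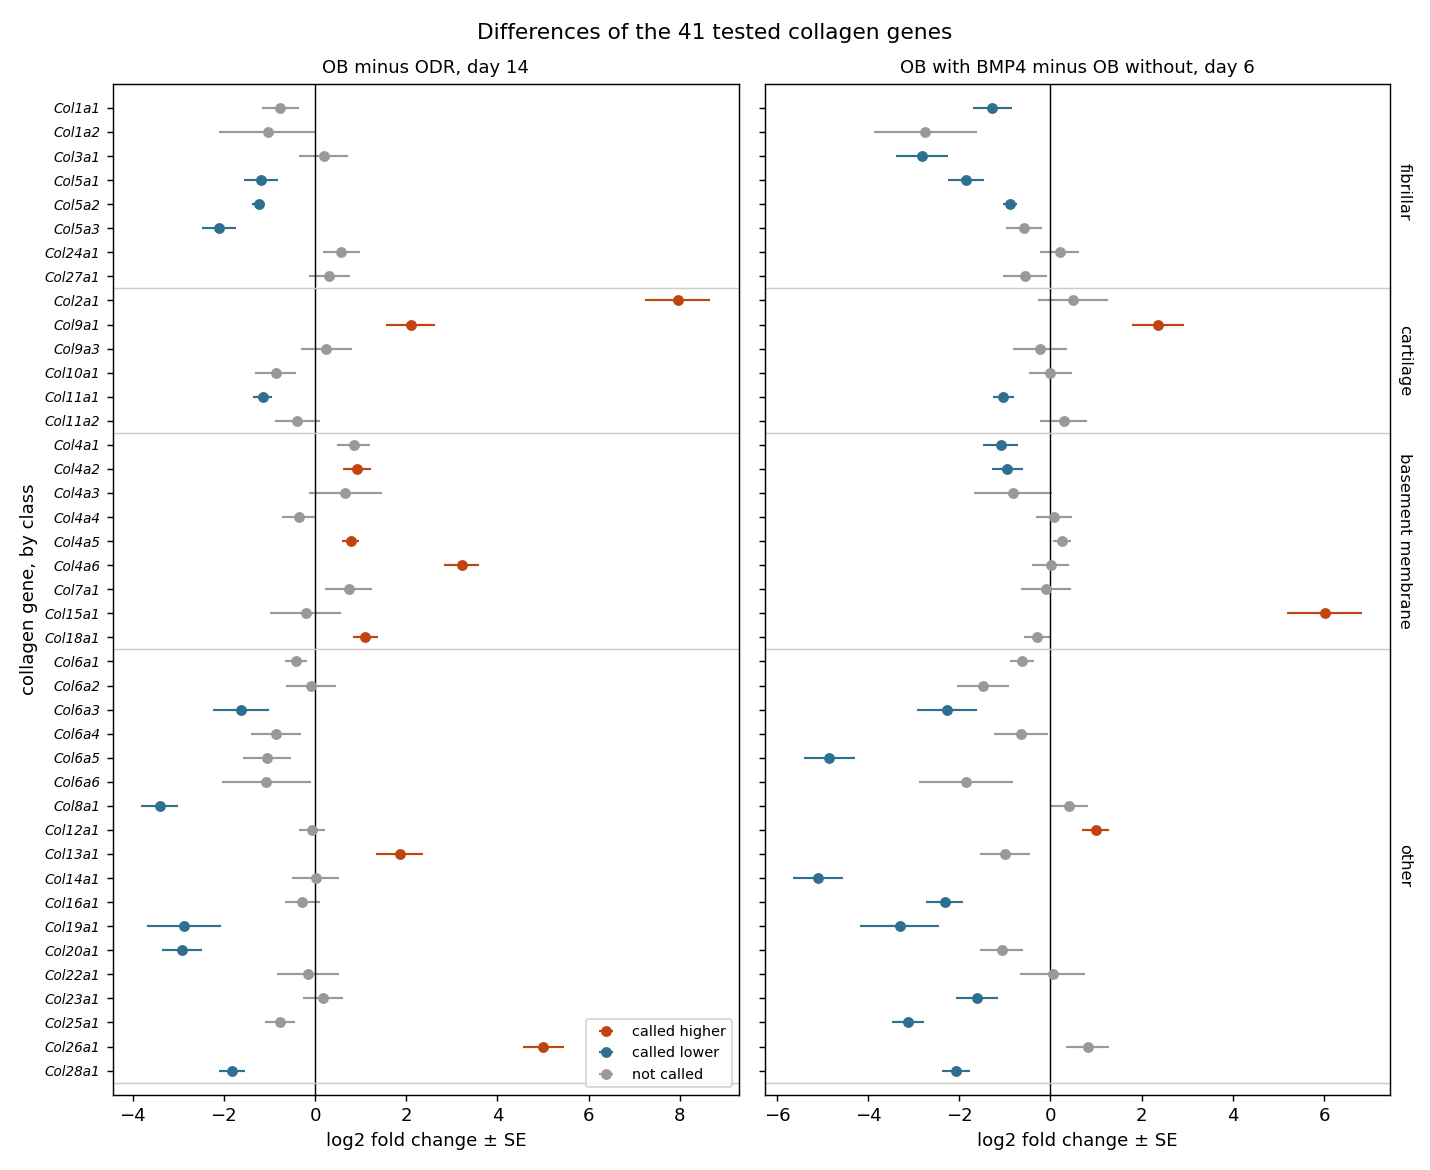
Log2 fold change with its SE (points and bars) for the 41 tested collagen genes, in OB against ODR cells at day 14 (left) and in OB cells with against without BMP4 at day 6 (right); red points were called higher, blue points lower and grey points were not called. Basement membrane points on the left lie mostly right of 0, with Col4a6 at 3.22, and the right panel holds 15 blue points and 3 red ones, Col15a1 farthest right at 6.02.

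Other cells with BMP4 had 1 distinct library each, so their values stand without a test. In the 1 distinct ODR library with BMP4 at day 6 Col15a1 read 407, against 11 and 13 in the ODR libraries without. Col14a1 read 38 with BMP4 against 153 and 232 without, Col1a2 548 against 3178 and 7101, Col3a1 1754 against 5626 and 9314, and Col8a1 7086 against 3168 and 3986. At day 9 the shared library with BMP4 held Col15a1 at 1230, against 23 in ODB and 24 in ODDR cells without it, and Col1a2 at 268, against 810 in ODB and 1942 in ODDR cells. That shared library held Kdm2b at 239, against 18690 in ODB and 452 in ODDR cells without BMP4, which goes against its ODB label. ODB cells without BMP4 held Col9a1 at 464, the highest value of that chain in the table. They held Col4a6 at 118 and Col26a1 at 68, below the OB day 14 libraries (152 to 197 and 413 to 628). ODDR cells without BMP4 held Col28a1 at 900 and Col8a1 at 18690, a value also read in ODR day 14 replicate 1.
Over all 33 distinct libraries, Col15a1 was above 400 in the 4 distinct libraries labelled with BMP4 other than the one shared with ODR day 6, and in the library labelled OA day 14 replicate 2 (1117). It was at 130 or less in the others. The library shared between ODR day 6 and ODR with BMP4 held 11.

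Type IV genes sit in pairs with their starts facing each other on opposite strands. Col4a1 (chr8:11198423-11312826, minus strand) and Col4a2 (chr8:11312805-11449287, plus strand) have annotated starts 21 bases apart, and Col4a5 (chrX:141475385-141689234, plus strand) and Col4a6 (chrX:141165403-141474076, minus strand) have RefSeq starts 1343 bases apart. The windows of the first pair, from 250 bases before to 50 bases after each start on GRCm38.p6 (chr8:11312777-11313076 and chr8:11312555-11312854), share 78 bases, which stand in capitals below, once in each direction. In the windows of the second pair (chrX:141475169-141475468 and chrX:141474027-141474326) the capitals mark letters that match GGGCGG or CCAAT on either strand.
Col4a1: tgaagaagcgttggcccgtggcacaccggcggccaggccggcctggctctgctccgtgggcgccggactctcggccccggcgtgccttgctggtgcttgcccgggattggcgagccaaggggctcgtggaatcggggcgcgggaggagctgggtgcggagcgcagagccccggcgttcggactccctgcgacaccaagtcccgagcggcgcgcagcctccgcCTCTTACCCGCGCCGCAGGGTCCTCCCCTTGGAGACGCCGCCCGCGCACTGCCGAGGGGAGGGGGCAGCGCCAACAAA
Col4a2: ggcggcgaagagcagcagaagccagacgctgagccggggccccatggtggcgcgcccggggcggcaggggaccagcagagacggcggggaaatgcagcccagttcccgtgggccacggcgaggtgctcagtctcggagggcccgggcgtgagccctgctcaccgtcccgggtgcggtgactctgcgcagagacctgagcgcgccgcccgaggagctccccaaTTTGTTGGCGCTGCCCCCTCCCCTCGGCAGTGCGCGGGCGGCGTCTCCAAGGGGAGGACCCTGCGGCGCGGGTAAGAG
Col4a5: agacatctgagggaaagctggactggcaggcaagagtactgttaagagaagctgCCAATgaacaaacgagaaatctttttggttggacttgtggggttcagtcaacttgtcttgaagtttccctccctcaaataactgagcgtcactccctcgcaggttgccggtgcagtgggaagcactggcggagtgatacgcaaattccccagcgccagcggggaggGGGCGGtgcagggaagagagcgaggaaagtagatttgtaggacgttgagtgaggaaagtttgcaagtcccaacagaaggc
Col4a6: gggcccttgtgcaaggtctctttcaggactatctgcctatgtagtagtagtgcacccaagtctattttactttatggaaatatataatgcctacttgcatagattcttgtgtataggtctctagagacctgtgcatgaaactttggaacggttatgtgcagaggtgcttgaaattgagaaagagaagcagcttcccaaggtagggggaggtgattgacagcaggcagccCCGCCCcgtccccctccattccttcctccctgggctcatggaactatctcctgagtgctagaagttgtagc

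The values of the 2 pairs are set beside the sequences as a description, and no link between sequence and value was tested. The Col4a1 value divided by the Col4a2 value ran from 1.09 to 1.65 (median 1.29) over 31 distinct infected-cell libraries, while both genes ran over a several-fold range, Col4a1 from 423 to 2888 and Col4a2 from 362 to 2176. The value of Col4a6 divided by that of Col4a5 ran from 0.0253 to 0.508 (median 0.0857). This second ratio was highest in the 3 OB libraries of day 14. Col4a6 was low in many libraries, at 5 to 32 in all day 6 libraries and in OA and ODR cells at day 14. The lowest ratio was at a Col4a6 value of 5, in ODR day 6 replicate 2. These are ratios of the deposited values as they stand, so their size says nothing of which chain is more abundant, and they are a description without a test. In the windows shown, GGGCGG was found on either strand once in Col4a1, 3 times in Col4a2, once in Col4a5 and once in Col4a6, and CCAAT once in each but Col4a6, which had none. TATAAA was found in none of the 4. These motifs occur in 35.7%, 37.4% and 13.6% of all 32851 promoter windows. RefSeq windows were found for 35 of the 44 collagens.

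**Figure D4:**
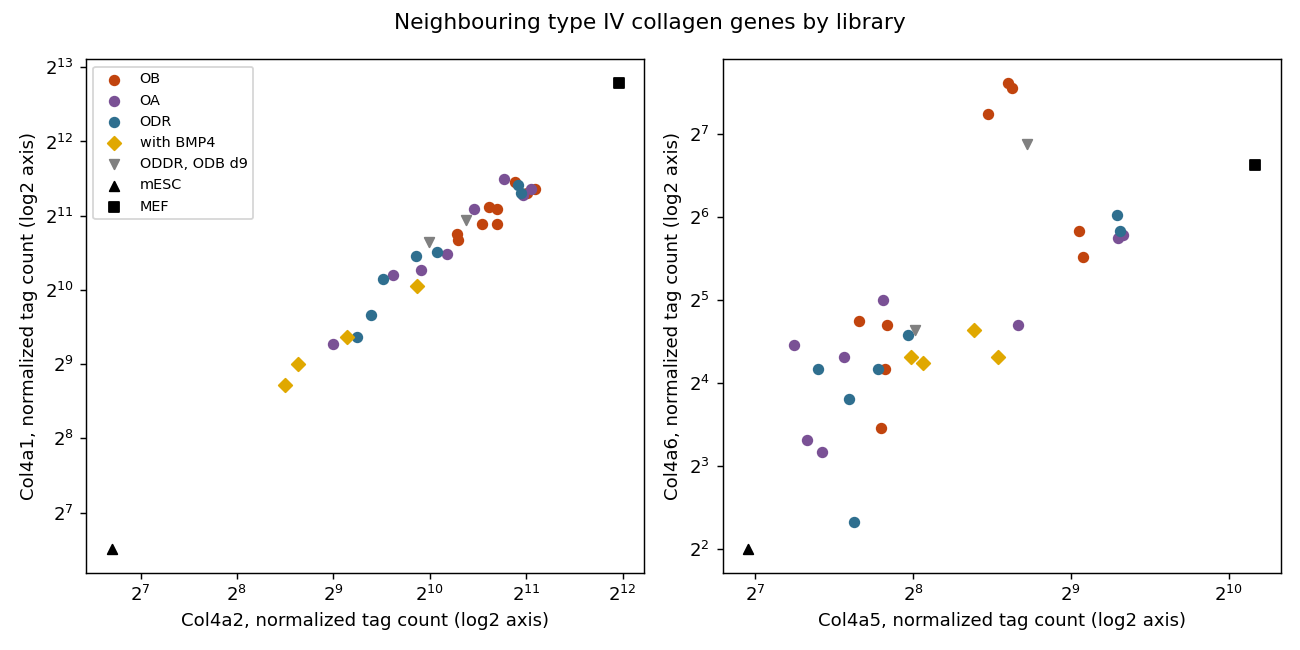
Normalized tag counts per library (log2 axes) of Col4a1 against Col4a2 (left) and of Col4a6 against Col4a5 (right); each point is 1 distinct library, coloured by label. The left points lie close to a line, with ratios of 1.09 to 1.65 in the infected cells, and on the right the 3 OB day 14 libraries (Col4a6 at 152 to 197) stand above the day 1 libraries, which have more Col4a5.

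Genes of propeptide processing, crosslinking and collagen receptors that were called between OB and ODR cells at day 14 in the main fit were all lower in OB. Of 13 genes of chain modification and folding 3 were higher and 4 lower: P4ha1 and P4ha2, the prolyl 4-hydroxylases that stabilise the helix, were higher (1.52 each on the log2 scale), as was Plod1, and Plod3, Crtap, Fkbp10 and Colgalt2 were lower. Of 8 genes of propeptide processing 0 were higher and 4 lower, among them Pcolce, the enhancer of C-propeptide cleavage, at 910, 1331 and 1331 in OB against 3320, 3492 and 3012 in ODR cells. Of 5 crosslinking enzymes 2 were lower, with Lox at 120, 98 and 210 in OB against 724, 536 and 674 in ODR cells. Loxl2, of the same list, went the other way without a call and without overlap. It read 1283, 1244 and 1244 in OB against 542, 580 and 962 in ODR cells. Of 8 collagen receptors 5 were lower and 0 higher, among them the integrin chains Itga1, Itga2 and Itga11 and the discoidin receptor Ddr2. Of 5 collagen-cleaving proteases 2 were higher (Mmp9 and Mmp13) and 3 lower (Mmp2, Mmp8 and Mmp14), and of 4 cartilage regulators Sox9 and Sox5 were higher and Runx2 lower. The medians of these lists were 0.083 for chain modification, -1.23 for propeptide processing, -0.67 for crosslinking, -1.05 for receptors, -0.70 for proteases and 0.57 for cartilage regulators, against 0.0086 over all genes.
The shares of all genes were 28% higher and 26.7% lower.
With BMP4 in OB cells, where 15% of all genes were higher and 17.5% lower, the counts were 3 higher and 4 lower of 13 for chain modification, 2 and 4 of 8 for propeptide processing, 0 and 0 of 5 for crosslinking, 3 and 2 of 8 for receptors, 0 and 0 of 5 for proteases and 1 and 2 of 4 for cartilage regulators. P4ha3, a further prolyl 4-hydroxylase, read 652 and 584 with BMP4 against 44, 32, 27 and 36 without. Of the fibroblast markers at day 14, 2 of 11 were higher in OB than in ODR cells (Pdgfrb and Prrx1) and 3 lower (Thy1, S100a4 and Fbn1). With OA day 14 replicate 2 left out of the fit 3 were higher and 5 lower, against 30% and 29.1% of all genes. The sums of the list were 18281 to 34670 in OB and 34847 to 35969 in ODR cells. Vim and Fn1 make up most of these sums, with Fn1 at 7097, 18690 and 18690 in OB and 18690 in each ODR library. Endothelial markers (2 of 4 lower, sums 48 to 65 in OB and 231 to 319 in ODR cells) and osteoblast markers (1 higher and 2 lower of 4 tested, sums 136 to 263 in OB and 776 to 1026 in ODR cells) moved too. Embryonic stem cell markers (Sall4 and Utf1 of 3 tested higher) had sums of 310 to 380 in OB and 6 to 9 in ODR cells. Sall4, at 346, 330 and 292 in OB, makes up most of the OB sums. Nanog, Zfp42, Dppa3, Dppa5a and Tdgf1, of the same list but not tested, stood at 6 or less in OB, against 2802, 912, 360, 7086 and 871 in mESCs. Endoderm markers (Sparc and Dab2 of 7 lower) had sums of 3829 to 4636 in OB and 7719 to 8588 in ODR cells. Of the other lists, 1 of 4 neural markers was higher (sums 1577 to 1809 in OB and 1216 to 1452 in ODR cells), and 1 of 2 macrophage markers (sums 4 to 26 in OB and 34 to 46 in ODR cells) and 1 of 4 smooth muscle markers (sums 260 to 595 in OB and 308 to 400 in ODR cells) were lower in OB. Their part in the collagen values was not tested.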

How the data were processed

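Messenger RNA was selected on oligo-dT beads and made into random-hexamer libraries, per the labels' protocols. bcl2fastq, Bowtie2 2.2.5, RSEM and the mouse build mm10 were named in the submitters' processing notes, and the order of steps, the normalization and the strand setting are not given in the sources used here, so reads of a gene and an antisense partner cannot be told apart. The deposited values, called normalized tag counts, are whole numbers on a score scale with a fixed ceiling, as deposited by the authors, with column sums of 4255921 to 4398785. They were therefore not tested as counts, and the depth is unknown.

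Genes with at least 10 in at least 2 of 27 libraries were fitted with limma 3.58.1 (R 4.3.3) on log2(value + 1) over 11 groups, without a replicate block, leaving 16 residual degrees of freedom. Two-sided p-values were adjusted by Benjamini-Hochberg over 13860 genes and called below 0.05 in 14 comparisons. The pipeline was tested on simulated data. Loci came from GENCODE M21 (44 of 44 matched by ID and symbol) and promoters from RefSeq (GRCm38.p6). Tables and plots used Python 3.11.15, pandas 2.3.3 and matplotlib 3.10.9. Full statistics were set to be given for up to 4 called members in each direction per comparison, those with the largest changes among members with no overlap between libraries and a higher group mean of at least 50, and for the member with the highest mean of each class; statistics given for further members were chosen after their values were seen. The 44 members, the classes and the marker and pathway lists were chosen with earlier results of these data known. Alternatives were a pseudocount of 10, no filter, a replicate block, median centring, only the groups compared, each library left out in turn and the shared library kept. A fit without the library labelled OA day 14 replicate 2 was added after seeing the data.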

Additional observations from a re-analysis of the deposited data

Results flagged for a closer look

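The change from day 6 to day 14 differed between OB and ODR cells, by an interaction term in limma, for 11 collagens, where 35.4% of all genes were called. On the log2 scale the OB change minus the ODR change was 5.31 for Col2a1, 4.80 for Col26a1, 2.29 for Col4a6 and 2.11 for Col9a1. It was -3.18 for Col14a1, -2.88 for Col28a1, -2.52 for Col25a1, -2.33 for Col8a1, -2.20 for Col20a1, -1.40 for Col11a1 and -0.92 for Col5a2. The Col9a1 difference was past the threshold in 8 of 19 alternatives, and the Col4a6 difference was 1.46 without ODR day 6 replicate 1 (limma adjusted p = 0.0523).

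In the 1 group of 4 libraries, OB at day 6, Col6a4 stood at 3 in 1 library, apart from 5 in each of the other 3. Of 41 collagens checked this was the 1 with a library apart. The limit used passes about 1 in 20 groups by chance, and these are small whole numbers with ties.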

How the results depend on the processing

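None of the called single-gene values that were followed changed sign. Col1a2 between OA and ODR at day 14, not called at -0.73, was called at 1.41 without OA replicate 2. Of the counts of collagens called, 136 stayed within 1.5 times the main count and 37 did not. Of the single-gene values 898 kept their call and 77 lost it.

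In a fit of only the groups compared, the count was 0 against 1 for OB and ODR at day 1 (0.106% of all genes called). At day 14 it was 0 against 5 for OA and ODR (0.04%) and 7 against 17 for OB and OA (36%). From day 6 to 14 it was 5 against 2 for ODR (3.73%) and 0 against 7 for OA (0.0319%). For OB from day 1 to 6 the count was 20 against 13 (37%). Without the library labelled OA day 14 replicate 2 in the fit, an alternative chosen after seeing the data, it was 2 against 1 for OB and ODR at day 1 (1.89% of all genes called), 12 against 7 at day 6 (15.3%), 4 against 0 for OA and ODR at day 6 (4.67%), 10 against 5 at day 14 (5.57%), 6 against 2 for ODR from day 6 to 14 (7.93%), 20 against 13 for OA from day 1 to 6 (40.1%), 16 against 7 for OA from day 6 to 14 (7.66%), 20 against 13 for OB from day 1 to 6 (39%), and 17 against 11 for the difference of changes (41.4%). For OA and ODR at day 6 a pseudocount of 10 gave 1 (3.02%), as did keeping the shared library as ODR day 6 (4.08%), which gave 4 against 2 for ODR from day 6 to 14 (8.09%). The replicate block gave 3 against 7 for OB and ODR at day 6 (10.1%).

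Leaving out 1 OB library gave 3 to 5 for OB and ODR at day 6 (3 without OB replicate 1 or 3), where 7.51% to 9.26% of all genes were called. Where a group had 2 libraries, leaving 1 out left a single library, and counts from such fits are not given here. Leaving out 1 library gave 2 to 10 for OA and ODR at day 14 (2 and 3 without ODR replicates 2 and 1, 8, 10 and 8 without OA replicates 1, 2 and 3) and 15 to 23 for OB and OA at day 14. The shares of all genes called in these fits were 2.48% to 8.87% and 43.5% to 52%. For OA from day 6 to 14 the count was 4 to 16 (4 without any 1 of the OA day 6 libraries, 16 without OA day 14 replicate 2), where 3.32% to 12.9% of all genes were called.

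The labels do not say whether same-numbered libraries belong together. No comparison with 3 pairs had all correlations of deviations over 0.1 (OB and ODR at day 14 had 0.156, 0.087 and 0.168), but all of them were positive. For OB and ODR and for OA and ODR at day 14, and for OB from day 6 to 14, 6 of 6 libraries correlated best with their own number. It was 5 of 6 for OA from day 6 to 14 and 4 of 6 for OB and OA at day 14. The main fit had no replicate block, so any shared structure stays in its spread. The coarse top of the scale limits differences among the highest chains, and the unknown depth leaves no counting error for the low ones.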
